A study of Homo sapiens with 8 samples.

Results

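The proteasome genes of HCT116 cells, a human colorectal cancer cell line, were compared after silencing of YTHDF3, a cytoplasmic protein that reads N6-methyladenosine (m6A) in RNA. Genes were taken by symbol, as those named PSMA, PSMB, PSMC, PSMD, PSME, PSMF or PSMG plus a number that have at least 1 protein-coding transcript. This gave 46 genes with 417 transcripts, out of 33106 gene names and 134605 transcripts. Cells transfected with siRNA against YTHDF3 (si-YTHDF3) were set against cells transfected with a negative control siRNA (NC). Each condition had 2 input RNA libraries, which hold the RNA before m6A precipitation, and 2 libraries of precipitated RNA, so that the series holds 8 libraries in 4 groups. The study lists 2 siRNAs against YTHDF3 by the names si-YTHDF3-1 and si-YTHDF3-2, and the labels do not say whether the 2 si-YTHDF3 libraries differ in the siRNA as well. Separate cultures are not named in the labels either, so the spread behind each p-value is that of these libraries and could be technical.

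The proteasome is the main protease of the cytosol and nucleus and degrades proteins that carry ubiquitin chains. Its 20S core is a barrel of alpha and beta rings with the catalytic sites inside, and its 19S cap binds ubiquitin, removes it and threads the substrate into the core. Dedicated chaperones build both particles, alternative caps open the core without ubiquitin, and immune cells or cells exposed to interferon exchange the catalytic beta subunits for inducible ones. Human proteasome genes are controlled together by the transcription factor NFE2L1, which acts through antioxidant response elements in their promoters.

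Levels are input FPKM, the number of fragments corrected for transcript length and for library size, summed over the transcripts of a gene. A pair of values is given in the order of the library numbers. FPKM do not keep read numbers, so the depth is unknown. The FPKM of the libraries summed to between 371121 and 383303, and each library had between 14323 and 14454 genes at 1 FPKM or more. YTHDF3 itself had 2.53 and 3.25 FPKM in si-YTHDF3 cells, against 25.9 and 12 FPKM in NC cells. The log2 fold change of YTHDF3 was -2.27 (SE 0.35, adjusted p = 0.133). The libraries carried the epithelial markers EPCAM, CDH1, KRT8, KRT18, KRT19 and CDX2, while the epithelial marker VIL1 was at or near 0. Of markers of other cells, COL1A1 had 11.9 to 15.8 FPKM and CD68 had 1.89 to 2.99 FPKM. COL3A1, CD14, PECAM1 and VWF stayed at or below 0.253 FPKM in all 4 libraries.

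All but one of the 46 proteasome genes had at least 1 FPKM in every library, and 41 had at least 10 FPKM in every library. The median over the 45 genes that passed the level filter was 52.2 FPKM, against 9.45 FPKM over all 14434 genes that passed it. Together the 46 genes held 2525 and 2670.3 FPKM in si-YTHDF3 cells, against 2552 and 2509.8 FPKM in NC cells. That was 0.673% and 0.697% of all FPKM in si-YTHDF3 cells and 0.688% and 0.676% in NC cells, so that the ranges of the groups overlapped. The testis alpha subunit PSMA8 and the thymus beta subunit PSMB11 were not among the 46 genes that the rule gave.

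**Figure D1:**
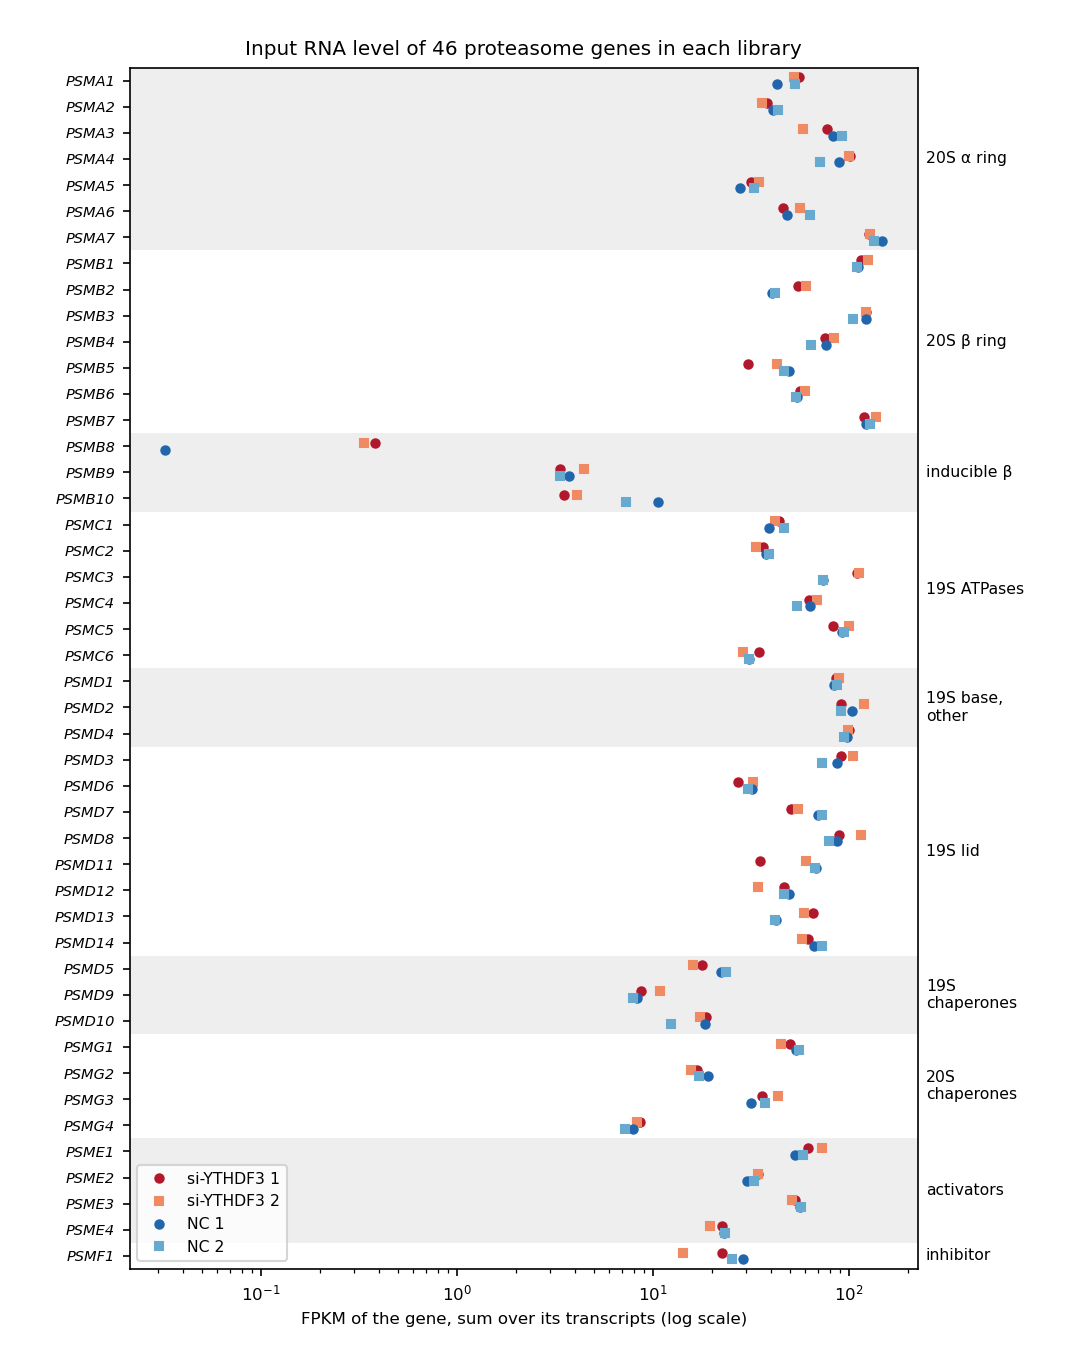
Input FPKM (log scale, sum over the transcripts of a gene) of the 46 proteasome genes in each of the 4 libraries, by role; the NC 2 value of PSMB8 is 0 and is not drawn. Core and cap subunits lie close together, most assembly chaperones lie lower, and the inducible beta subunits PSMB8, PSMB9 and PSMB10 are the lowest in si-YTHDF3 cells. In NC cells PSMB8 and PSMB9 are the lowest, and PSMB10 (10.7 and 7.34 FPKM) lies among the low chaperones PSMG4 and PSMD9.

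Tests were made with limma on log2(FPKM + 1) for genes with a mean of at least 1 FPKM, with Benjamini-Hochberg adjustment over all 14434 genes. Each fold change is that of si-YTHDF3 over NC on this scale, which understates the change of low genes. None of the 45 genes passed at an adjusted p under 0.05, and the lowest adjusted p was 0.179. Over all genes, the adjusted threshold was passed by 0.0277% in the higher direction and by 0% in the lower direction. The unadjusted threshold of 0.05 was passed by 3 of the 45 in the higher and by 4 in the lower direction. The matching shares over all genes were 8.33% higher and 6.53% lower. The 7 proteasome genes were 15.6% of those tested and the 2146 genes of the whole table were 14.9%, so the count was near its background.

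Both si-YTHDF3 libraries lay above both NC libraries for 13 of the 45 genes, and over all genes for 25.3%. Both lay below for 15 of the 45, and over all genes for 23.7%. The median log2 fold change was 0.04 over the proteasome genes and 0.01 over all genes, and 26 of the 45 had a value above 0. The median size of the change regardless of sign was 0.17 for proteasome genes and 0.19 for all genes. A log2 fold change within 0.3 of 0 was found for 33 of the 45, or 73.3%, against 70.5% of all genes. With transcripts summed, only PSMB10 differed by 2-fold or more.

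**Figure D2:**
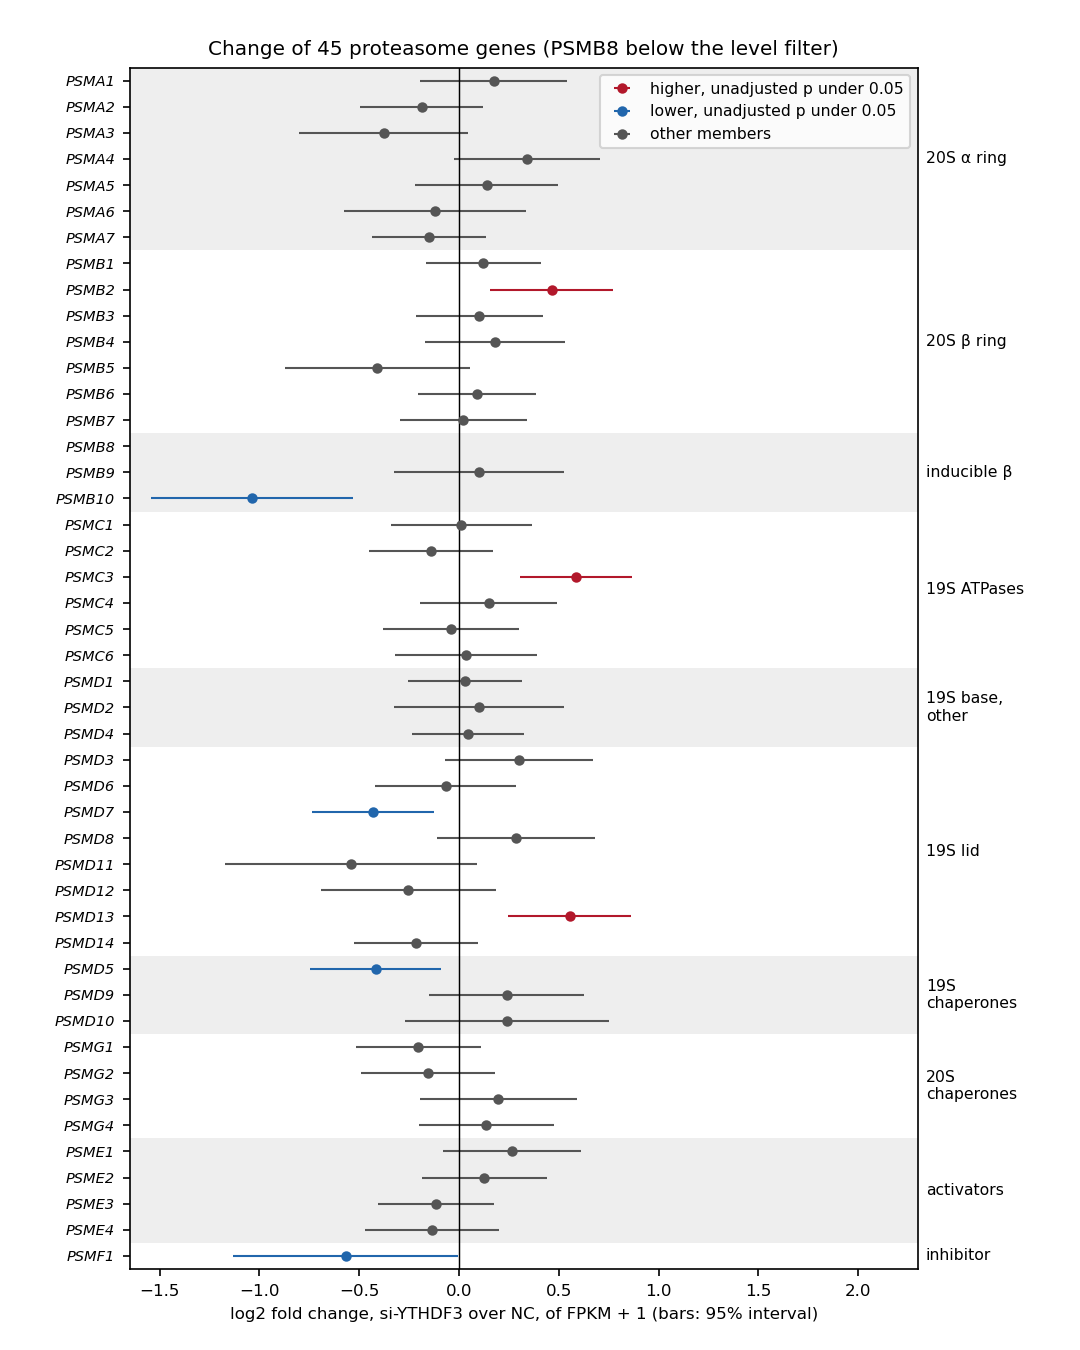
Log2 fold change (si-YTHDF3 over NC, of FPKM + 1) of the 45 proteasome genes tested, with 95% intervals from limma, by role. Red and blue mark the 3 higher and 4 lower genes at an unadjusted p under 0.05, of which PSMC3 (0.59) is the highest and PSMB10 (-1.04) the lowest.

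In the 20S core, the 7 alpha subunits, which form the outer rings and the gate, gave 3 values above 0 and 4 below, and none passed at an unadjusted p under 0.05. Their mean levels ran from 33.3 to 128 FPKM in si-YTHDF3 cells and from 30.3 to 142 FPKM in NC cells. PSMA4 had 101 and 100.2 FPKM in si-YTHDF3 cells, against 88.8 and 71 FPKM in NC cells. The libraries of PSMA4 did not overlap, and its log2 fold change of 0.34 had a 95% interval from -0.03 to 0.71. It was 0.50 without NC library 1 and 0.18 without NC library 2. PSMA3 lay the other way, with 77.4 and 58.4 FPKM in si-YTHDF3 cells against 83.4 and 92.1 FPKM in NC cells (log2 fold change -0.38, unadjusted p = 0.0714). Without si-YTHDF3 library 1 the value of PSMA3 was -0.58, and without si-YTHDF3 library 2 it was -0.18. The other alpha subunits, PSMA1, PSMA2, PSMA5, PSMA6 and PSMA7, had log2 fold changes from -0.19 to 0.17. PSMA3 overlaps the antisense gene PSMA3-AS1, which had 16 and 13.9 FPKM in si-YTHDF3 cells and 11.3 and 14.6 FPKM in NC cells.

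Of the 7 constitutive beta subunits, 6 had a log2 fold change above 0 and PSMB5 had one below. PSMB2, a structural subunit of the beta ring, was the member of this group at an unadjusted p under 0.05. It had 54.9 and 60.2 FPKM in si-YTHDF3 cells, against 40.8 and 42 FPKM in NC cells. The 2 groups were clearly apart for PSMB2, with a log2 fold change of 0.46 (SE 0.12, unadjusted p = 0.0107, adjusted p = 0.232). The other structural subunits PSMB1, PSMB3 and PSMB4 had log2 fold changes from 0.10 to 0.18. The log2 fold change of PSMB2 was 0.40 without si-YTHDF3 library 2 and 0.44 without NC library 1.

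The 3 catalytic subunits of the constitutive core differed among themselves. PSMB5, which carries the chymotrypsin-like site, had 30.5 and 42.8 FPKM in si-YTHDF3 cells against 49.6 and 47 FPKM in NC cells. Both si-YTHDF3 values of PSMB5 were below the NC values, yet the log2 fold change of -0.41 had an interval from -0.87 to 0.06. It was -0.65 without si-YTHDF3 library 2 and -0.17 without si-YTHDF3 library 1. PSMB6, the caspase-like subunit, had 56.1 and 59.7 FPKM in si-YTHDF3 cells against 54.7 and 53.7 FPKM in NC cells (log2 fold change 0.09). PSMB7, the trypsin-like subunit, had 119 and 138 FPKM in si-YTHDF3 cells against 123 and 129 FPKM in NC cells (log2 fold change 0.02). The groups overlapped for PSMB7, and PSMB6 lay slightly higher in si-YTHDF3 cells without passing the test.

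Inducible catalytic subunits were scarce. PSMB8, PSMB9 and PSMB10 replace PSMB5, PSMB6 and PSMB7 in the immunoproteasome, and together they had 7.29 and 8.93 FPKM in si-YTHDF3 cells and 14.5 and 10.7 FPKM in NC cells. The 3 constitutive counterparts together had 205 and 240.1 FPKM in si-YTHDF3 cells and 227 and 229.9 FPKM in NC cells. PSMB8 was below the level filter, with 0.383 and 0.337 FPKM in si-YTHDF3 cells against 0.0327 and 0 FPKM in NC cells, and was not tested. PSMB9 had 3.37 and 4.48 FPKM in si-YTHDF3 cells against 3.76 and 3.37 FPKM in NC cells, with overlapping groups.

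PSMB10 had the largest log2 fold change of the 45 genes in size. It had 3.54 and 4.12 FPKM in si-YTHDF3 cells, against 10.7 and 7.34 FPKM in NC cells. Both si-YTHDF3 values were about as low as those of PSMB9, and the gap between the NC values was the wider one. The log2 fold change was -1.04 (SE 0.20, 95% interval -1.55 to -0.53, unadjusted p = 0.00273, adjusted p = 0.181). It was -0.79 without NC library 1, -1.28 without NC library 2 and -0.70 with transcripts weighted by length.

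A transcript annotated as retaining an intron, ENST00000570985, held 32.2% of the PSMB10 FPKM in si-YTHDF3 cells, against 83.2% in NC cells. That transcript had 0.915 and 1.55 FPKM in si-YTHDF3 cells against 8.86 and 6.18 FPKM in NC cells (log2 fold change -1.93, unadjusted p = 0.00371, adjusted p = 0.3). The remaining PSMB10 transcripts summed to 2.63 and 2.57 FPKM in si-YTHDF3 cells and to 1.89 and 1.15 FPKM in NC cells, so their order was the reverse of that of the gene. Protein-coding transcripts of PSMB10 made up 38.5% and 29.6% of its FPKM in si-YTHDF3 cells, against 4.25% and 5.15% in NC cells. An overlapping gene on the same strand, AC040162.1, had 1.38 and 1.88 FPKM in si-YTHDF3 cells against 0.748 and 0.584 FPKM in NC cells, and its part in the reads given to PSMB10 was not tested.

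In the 19S base, the 6 AAA ATPases that unfold the substrate gave 4 values above 0 and 2 below. PSMC3 was the one at an unadjusted p under 0.05 and had the lowest adjusted p of all 45 genes. It had 109.7 and 113 FPKM in si-YTHDF3 cells, against 73.6 and 73.5 FPKM in NC cells. The libraries of each group lay almost on top of each other, and the log2 fold change of PSMC3 was 0.59 (SE 0.11, 95% interval 0.31 to 0.87, unadjusted p = 0.00242, adjusted p = 0.179). Over the 16 alternative settings the log2 fold change of PSMC3 ran from 0.56 to 0.65, although several of them cannot alter the estimate. Each setting that kept all 4 libraries gave PSMC3 an unadjusted p under 0.05.

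The other 5 ATPases, PSMC1, PSMC2, PSMC4, PSMC5 and PSMC6, had log2 fold changes from -0.14 to 0.15. PSMC1 has a pseudogene, PSMC1P1, that was listed above it. PSMC1P1 had 55.7 and 52.9 FPKM in si-YTHDF3 cells and 53 and 63.1 FPKM in NC cells, and PSMC1 had 44.3 and 42 FPKM in si-YTHDF3 cells and 39.1 and 46.7 FPKM in NC cells. How reads were shared between PSMC1 and PSMC1P1 is not known here, so the level of PSMC1 is uncertain. Of 20 proteasome pseudogenes listed, 2 had a mean of at least 1 FPKM.

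The large scaffold subunits PSMD1 and PSMD2 and the ubiquitin receptor PSMD4 had log2 fold changes from 0.03 to 0.10. PSMD4 had 99.9 and 98.8 FPKM in si-YTHDF3 cells against 97.7 and 94.9 FPKM in NC cells (log2 fold change 0.04, 95% interval -0.24 to 0.32). PSMD1 had 85.6 and 88.8 FPKM in si-YTHDF3 cells against 83.7 and 86.8 FPKM in NC cells. PSMD2 varied more within the groups, at 90.8 and 119 FPKM in si-YTHDF3 cells and 104 and 90.9 FPKM in NC cells. None of the 3 passed the unadjusted test.

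The 8 lid subunits, which hold the deubiquitinase that cuts off the ubiquitin chain, differed in both directions, with 3 log2 fold changes above 0 and 5 below. PSMD13 had 65.5 and 59.1 FPKM in si-YTHDF3 cells, against 42.4 and 41.8 FPKM in NC cells (log2 fold change 0.55, SE 0.12, unadjusted p = 0.00507, adjusted p = 0.206). PSMD7, the inactive partner of the deubiquitinase, lay the other way with 50.6 and 55.2 FPKM in si-YTHDF3 cells against 69.7 and 73.4 FPKM in NC cells. The groups did not overlap for either gene, and the log2 fold change of PSMD7 was -0.43 (SE 0.12, unadjusted p = 0.0145, adjusted p = 0.251). The log2 fold change of PSMD7 was -0.37 without si-YTHDF3 library 1 and -0.39 without NC library 2. Its call was lost over protein-coding transcripts alone and with same-numbered libraries as blocks.

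The deubiquitinase itself, PSMD14, had 61.8 and 58 FPKM in si-YTHDF3 cells against 66.1 and 73.3 FPKM in NC cells (log2 fold change -0.21, unadjusted p = 0.142). PSMD3 had 91.2 and 105 FPKM in si-YTHDF3 cells against 86.7 and 72.7 FPKM in NC cells (log2 fold change 0.30). PSMD8 had 89.5 and 115 FPKM in si-YTHDF3 cells against 86.9 and 79.2 FPKM in NC cells (log2 fold change 0.29, and 0.46 without si-YTHDF3 library 1). Both lay above NC in both libraries without passing the unadjusted test, and the remaining lid subunits PSMD6 and PSMD12 overlapped between the groups. PSMD12 had a log2 fold change of -0.25, which was -0.47 without si-YTHDF3 library 1 and -0.04 without si-YTHDF3 library 2. PSMD11, a scaffold of the lid, had 35.2 and 60.2 FPKM in si-YTHDF3 cells against 68 and 66.9 FPKM in NC cells. Its log2 fold change of -0.54 (unadjusted p = 0.0808) rested on si-YTHDF3 library 1, and was -0.16 without it and -0.92 without si-YTHDF3 library 2.

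Transcripts divided these genes further. In PSMD13 the higher sum lay in 1 short transcript annotated as retaining an intron, ENST00000533717, which had 35.9 and 29 FPKM in si-YTHDF3 cells against 7.2 and 5.63 FPKM in NC cells. The other PSMD13 transcripts summed to 29.7 and 30.1 FPKM in si-YTHDF3 cells and to 35.2 and 36.2 FPKM in NC cells, below NC in both. Over protein-coding transcripts alone the log2 fold change of PSMD13 was 0.07, and with transcripts weighted by length it was 0.15. In contrast, the higher values of PSMC3 and PSMB2 lay in their main mRNAs. ENST00000298852 of PSMC3 had 79.2 and 85.2 FPKM in si-YTHDF3 cells against 49.8 and 49.9 FPKM in NC cells, and the protein-coding sum gave PSMC3 a log2 fold change of 0.65. ENST00000373237 of PSMB2 had 51.7 and 56.3 FPKM in si-YTHDF3 cells against 38.3 and 39.5 FPKM in NC cells.

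For PSMD7, the protein-coding transcript ENST00000568615 had 18 and 20.6 FPKM in si-YTHDF3 cells against 26 and 28.4 FPKM in NC cells. Its longer mRNA ENST00000219313 overlapped between the groups, with 28.3 and 21.4 FPKM in si-YTHDF3 cells and 32.1 and 17.1 FPKM in NC cells. Over protein-coding transcripts the log2 fold change of PSMD7 was -0.19. For PSMD11, ENST00000457654 had 7.19 FPKM in si-YTHDF3 library 1 and 41.8 FPKM in si-YTHDF3 library 2, against 47.3 and 46.3 FPKM in NC cells. The lower value in si-YTHDF3 library 1 stood apart from the other 3 libraries.

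**Figure D3:**
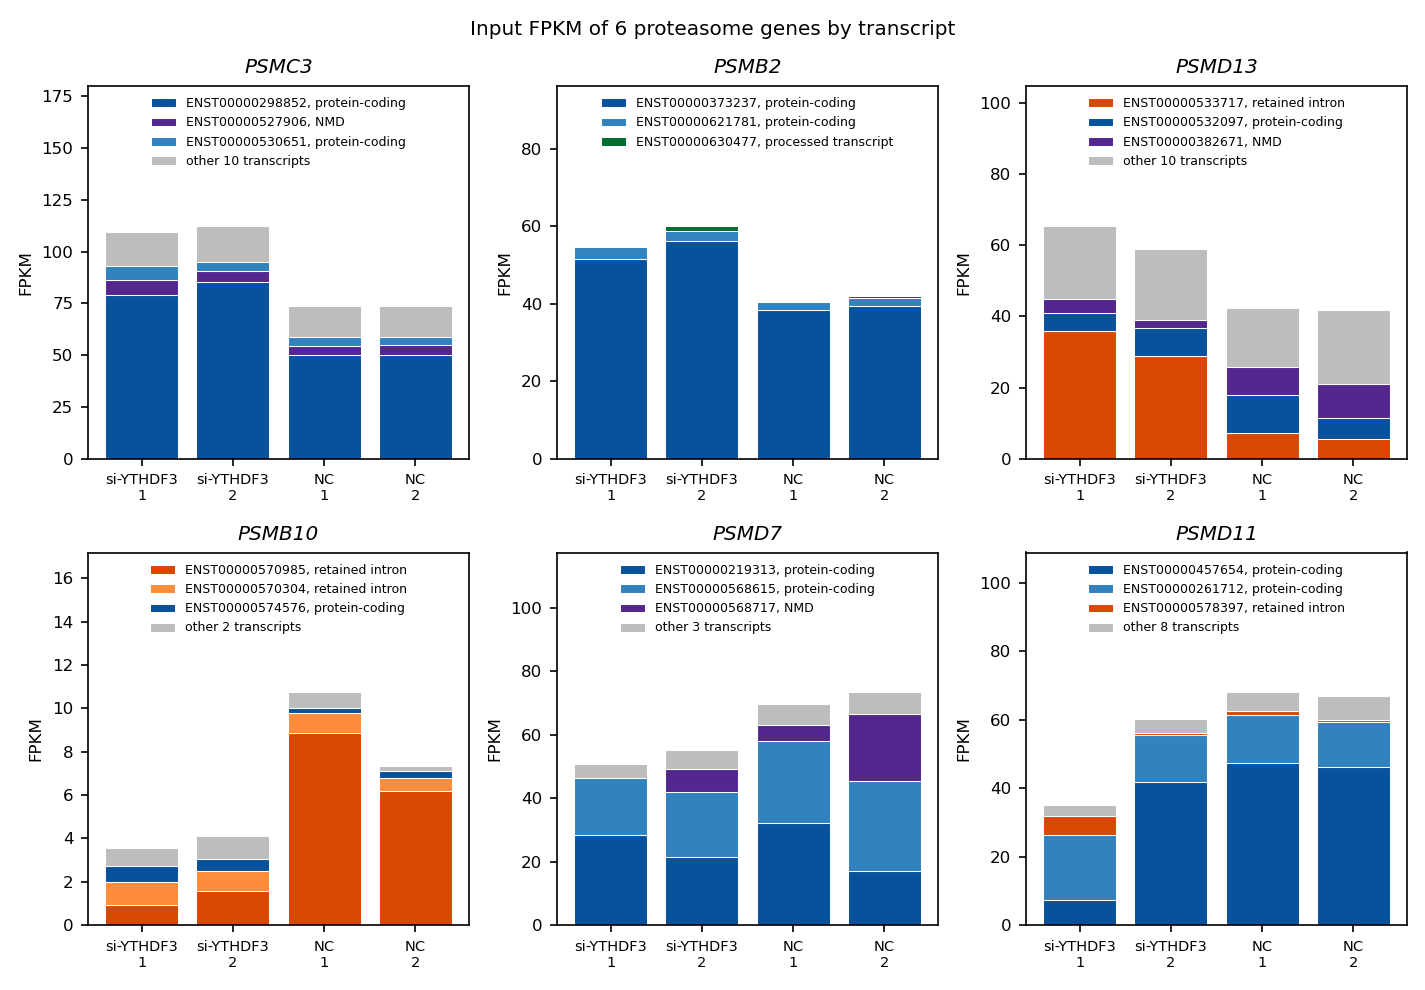
Input FPKM of 6 proteasome genes in each library, divided into the 3 transcripts with the highest mean and all others (NMD, nonsense-mediated decay). The excess of si-YTHDF3 over NC lies in the main mRNA for PSMC3 and PSMB2 and in 1 retained-intron transcript for PSMD13, and the deficit of PSMB10 lies in another retained-intron transcript.

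**Figure D4:**
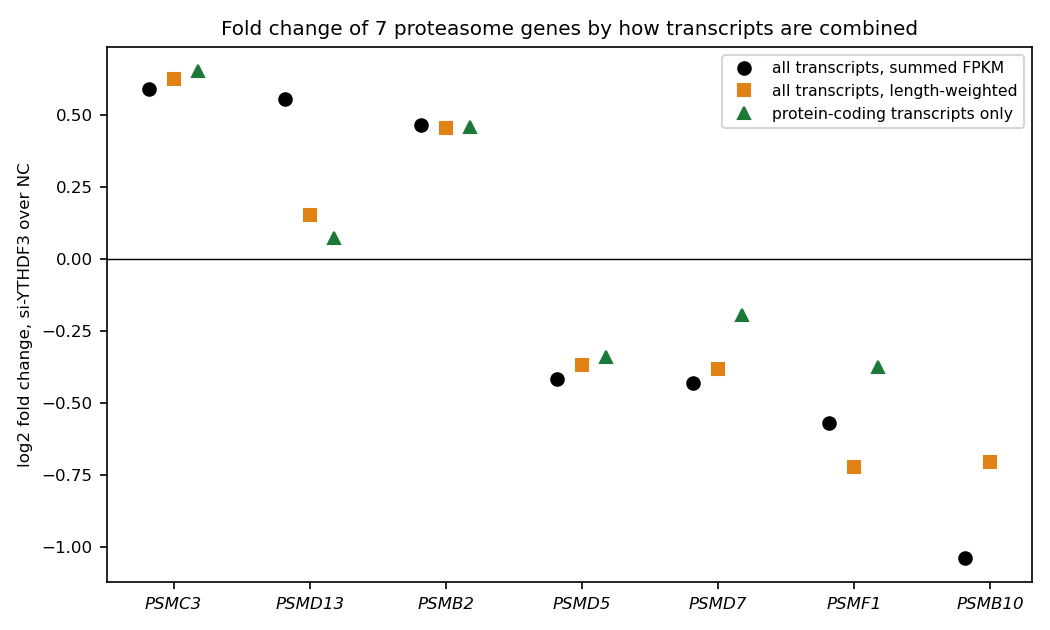
Log2 fold change (si-YTHDF3 over NC) of the 7 proteasome genes at an unadjusted p under 0.05, with all transcripts summed, weighted by length, or restricted to protein-coding ones. PSMC3 and PSMB2 hardly move, PSMD13 drops to 0.15 and 0.07, and PSMB10 has no protein-coding value because it is then below the level filter.

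Over all transcripts of proteasome genes, 230 of 417 had a mean of at least 1 FPKM and were tested. None of them passed at an adjusted p under 0.05, which 0% of the 38284 transcripts of the whole table did either. At an unadjusted p under 0.05 with a 2-fold change on the log2(FPKM + 1) scale, 5 proteasome transcripts were higher and 8 were lower. These were 2.17% and 3.48% of those tested, against 2.22% higher and 1.89% lower over all transcripts. In PSMA4, the retained-intron transcripts ENST00000558639 and ENST00000559934 were among the 5 higher ones. ENST00000558639 had 6.59 and 8.8 FPKM in si-YTHDF3 cells against 0.769 and 0.544 FPKM in NC cells (log2 fold change 2.38, adjusted p = 0.177). The protein-coding PSMA4 transcript ENST00000560737 was among the lower ones, with 0.168 and 2.19 FPKM in si-YTHDF3 cells against 8.12 and 9.17 FPKM in NC cells.

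PSMB5 showed a like division between its own mRNAs. ENST00000361611 had 17.6 and 14.5 FPKM in si-YTHDF3 cells against 6.33 and 4.74 FPKM in NC cells (log2 fold change 1.39). ENST00000493471 had 2.53 and 4.13 FPKM in si-YTHDF3 cells against 11 and 11.1 FPKM in NC cells (log2 fold change -1.50). In both directions the groups of PSMB5 transcripts were apart, while the sum over the gene did not pass the unadjusted test. The fifth of the higher ones was the PSMC5 transcript ENST00000578570, with 8.42 and 7.49 FPKM in si-YTHDF3 cells against 2.56 and 2.89 FPKM in NC cells. ENST00000382671 of PSMD13, annotated to nonsense-mediated decay, was lower with 4.01 and 2.01 FPKM in si-YTHDF3 cells against 7.74 and 9.54 FPKM in NC cells. The other lower ones with under 5 FPKM in NC cells belonged to PSMD1, PSMB4 and PSMA6, each of them at or below 0.564 FPKM in si-YTHDF3 cells. ENST00000370858 of PSMA7 had 8.66 and 8.91 FPKM in si-YTHDF3 cells against 18.4 and 23.4 FPKM in NC cells.

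The share of protein-coding transcripts in the summed FPKM of the 46 genes was 73.5% and 74% in si-YTHDF3 cells and 73.8% and 73.1% in NC cells. Transcripts with a retained intron took 15.6% and 14.3% in si-YTHDF3 cells against 13.8% and 14.1% in NC cells. Transcripts annotated to nonsense-mediated decay took 6.42% and 8.3% in si-YTHDF3 cells against 9.06% and 8.93% in NC cells. Over all genes, retained-intron transcripts took 11.6% and 11.9% in si-YTHDF3 cells and 11.8% and 11.8% in NC cells, and decay transcripts took 4.72% and 4.59% in si-YTHDF3 cells and 4.67% and 4.63% in NC cells. Neither difference between the groups of proteasome genes was tested. The groups were apart for decay transcripts, also with any 1 of them left out. For retained introns, leaving out any of 5 single transcripts made the groups overlap, and without ENST00000533717 of PSMD13 the shares were 14.4% and 13.3% in si-YTHDF3 cells and 13.6% and 13.9% in NC cells. A transcript with the highest level that was not the same in the 2 groups was found for 7 of the 46 genes, a count with no matching share over all genes. FPKM of single transcripts rest on how reads were divided among overlapping isoforms, a step the sources used here do not describe. Another listed gene overlaps the span of 27 of the 46 genes on one strand or the other.

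Of the assembly chaperones of the 19S base, PSMD5 was at an unadjusted p under 0.05. It had 17.8 and 16.1 FPKM in si-YTHDF3 cells, against 22.3 and 23.6 FPKM in NC cells (log2 fold change -0.42, SE 0.13, unadjusted p = 0.0216, adjusted p = 0.279). Its antisense neighbour PSMD5-AS1 had 8.53 and 8.93 FPKM in si-YTHDF3 cells and 4.86 and 8.31 FPKM in NC cells, and the sources used here do not say whether reads were counted by strand. The other 2 chaperones of the base had values in the other direction that did not pass the test. PSMD9 had 8.73 and 10.9 FPKM in si-YTHDF3 cells against 8.33 and 7.9 FPKM in NC cells. PSMD10, also known as gankyrin, had 18.7 and 17.4 FPKM in si-YTHDF3 cells against 18.4 and 12.4 FPKM in NC cells, with overlapping groups. Its log2 fold change of 0.24 was 0.51 without NC library 1 and -0.03 without NC library 2. The log2 fold change of PSMD5 was -0.35 without si-YTHDF3 library 2, -0.45 without NC library 1 and -0.38 without NC library 2. Its call was lost over protein-coding transcripts alone and with same-numbered libraries as blocks.

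The chaperones PSMG1 to PSMG4 assemble the alpha ring of the core, and none of them passed the unadjusted test. PSMG1 had 50.1 and 45 FPKM in si-YTHDF3 cells against 54.1 and 55.6 FPKM in NC cells (log2 fold change -0.20). Its partner PSMG2 had 16.9 and 15.6 FPKM in si-YTHDF3 cells against 19.2 and 17.3 FPKM in NC cells (log2 fold change -0.16). Both partners lay lower in both si-YTHDF3 libraries. The second pair lay the other way, with log2 fold changes of 0.20 for PSMG3 and 0.14 for PSMG4. PSMG3 had 36.1 and 43.7 FPKM in si-YTHDF3 cells against 31.9 and 37.3 FPKM in NC cells, and PSMG4 had 8.58 and 8.29 FPKM in si-YTHDF3 cells against 7.97 and 7.19 FPKM in NC cells.

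Among the activators that cap the core in place of 19S, the interferon-inducible pair PSME1 and PSME2 had values above 0 and the nuclear activators PSME3 and PSME4 below 0. PSME1 had 61.8 and 72.9 FPKM in si-YTHDF3 cells against 53.3 and 58.1 FPKM in NC cells (log2 fold change 0.27, unadjusted p = 0.109). PSME2 had 34.5 and 34.6 FPKM in si-YTHDF3 cells against 30.1 and 32.9 FPKM in NC cells (log2 fold change 0.13). Neither passed the unadjusted test, although the libraries did not overlap for either. Over protein-coding transcripts alone PSME2 did pass it (log2 fold change 0.62, unadjusted p = 0.0226), but PSME1 did not (0.19, unadjusted p = 0.45). With transcripts weighted by length PSME1 passed (0.27, unadjusted p = 0.0374), but PSME2 did not (0.09, unadjusted p = 0.422). PSME3 had 53.2 and 51.5 FPKM in si-YTHDF3 cells against 56.2 and 57.3 FPKM in NC cells (log2 fold change -0.11). PSME4 had 22.5 and 19.6 FPKM in si-YTHDF3 cells against 23 and 23.3 FPKM in NC cells (log2 fold change -0.13).

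PSMF1, named as an inhibitor of the 20S core (PI31), had 22.5 and 14.3 FPKM in si-YTHDF3 cells against 28.8 and 25.5 FPKM in NC cells. The groups did not overlap, but the 2 si-YTHDF3 libraries lay far from each other. The log2 fold change was -0.57 (SE 0.23, 95% interval -1.13 to -0.003, unadjusted p = 0.0492, adjusted p = 0.334). It was -0.26 without si-YTHDF3 library 2 and -0.48 without NC library 1. With all 4 libraries, the unadjusted threshold was not passed with a pseudocount of 0.1, no filter, no mean trend or crossed replicate numbers. It was not passed over protein-coding transcripts alone or with transcripts weighted by length either. The other settings run on 4 libraries passed it.

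Promoters are shown for PSMC3 and PSMB2, the pair of genes whose higher level lay in their main mRNA. PSMB10 and PSMD7 are shown as well, which were lower with all transcripts summed. Without the transcript ENST00000570985, PSMB10 was higher, at 2.63 and 2.57 FPKM in si-YTHDF3 cells against 1.89 and 1.15 FPKM in NC cells. Over protein-coding transcripts the log2 fold change of PSMD7 was -0.19 (unadjusted p = 0.29). The windows are RefSeq sequence of build GRCh38.p14, from 250 bases before to 50 bases after the start of the gene, in the direction of the gene. They lie at chr11:47426390-47426689 (minus strand) for PSMC3, chr1:35641477-35641776 (minus strand) for PSMB2, chr16:67936801-67937100 (minus strand) for PSMB10 and chr16:74296564-74296863 (plus strand) for PSMD7. Capitals mark 1 match in each, of the core of the antioxidant response element (TGANNNNGC) in PSMC3 and PSMB2, of the interferon-stimulated response element (GAAANNGAAA) in PSMB10 and of an ETS factor site (CCGGAAG) in PSMD7, each searched on both strands.
PSMC3: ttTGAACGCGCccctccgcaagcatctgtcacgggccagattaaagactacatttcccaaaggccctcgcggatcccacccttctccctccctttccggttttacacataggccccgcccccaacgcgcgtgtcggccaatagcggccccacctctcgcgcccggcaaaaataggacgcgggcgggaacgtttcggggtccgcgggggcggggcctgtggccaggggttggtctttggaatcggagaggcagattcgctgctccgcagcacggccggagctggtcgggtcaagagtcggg
PSMB2: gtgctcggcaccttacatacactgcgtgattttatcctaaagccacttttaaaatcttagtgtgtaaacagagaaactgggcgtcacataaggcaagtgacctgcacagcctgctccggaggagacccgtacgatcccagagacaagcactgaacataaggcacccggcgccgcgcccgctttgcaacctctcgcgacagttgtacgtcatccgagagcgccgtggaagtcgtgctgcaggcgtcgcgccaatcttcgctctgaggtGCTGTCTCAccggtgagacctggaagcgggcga
PSMB10: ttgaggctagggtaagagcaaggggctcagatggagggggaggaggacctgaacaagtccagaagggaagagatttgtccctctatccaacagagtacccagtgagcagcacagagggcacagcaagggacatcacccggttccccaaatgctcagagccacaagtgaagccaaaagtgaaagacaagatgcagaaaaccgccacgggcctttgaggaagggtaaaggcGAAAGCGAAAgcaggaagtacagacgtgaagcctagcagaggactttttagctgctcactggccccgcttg
PSMD7: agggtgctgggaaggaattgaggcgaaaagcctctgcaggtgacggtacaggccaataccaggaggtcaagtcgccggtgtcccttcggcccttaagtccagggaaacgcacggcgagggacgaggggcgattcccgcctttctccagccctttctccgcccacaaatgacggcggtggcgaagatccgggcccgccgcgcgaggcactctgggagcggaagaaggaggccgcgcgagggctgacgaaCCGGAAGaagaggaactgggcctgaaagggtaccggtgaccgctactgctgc

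No marked match overlaps another of the motifs searched, which also included the CCAAT box (CCAAT). A window was found for 40 of the 46 genes, some of which had several, giving 49 windows in all. TGANNNNGC was in 30 of the 49, or 61.2%, and in 41.8% of all 35116 promoter windows. By gene, it was in 26 of the 40 with a window. Of the 3 higher genes, PSMC3, PSMB2 and PSMD13 each had it in a window, and of the 4 lower genes only PSMD5 had it. These directions are those of all transcripts summed. They were reversed for PSMD13 without ENST00000533717 and for PSMB10 without ENST00000570985. Genes with a log2 fold change below 0 that did not pass, such as PSMA3 and PSMB5, had TGANNNNGC as well. A link between the motif and the direction of change was not tested. CCGGAAG was in 14 of the 49 windows and in 10.3% of all, and CCAAT was in 19 of the 49 and in 34.6% of all. GAAANNGAAA was in 7 of the 49 and in 3.57% of all, in the genes PSMB8, PSMB10, PSME1, PSME2, PSMA4, PSMB4 and PSMG4. A match describes letters in a window and is not evidence of binding.

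Genes that act with the proteasome were taken from 6 lists with 50 symbols, of which 47 were in the table and all 47 were tested. The unadjusted threshold was passed by 4 in the higher and 1 in the lower direction, beside 8.33% higher and 6.53% lower over all genes, and none passed at the adjusted threshold.

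Among 4 deubiquitinases and ligases that bind the proteasome, USP14 and UCHL5, both of which trim ubiquitin at the cap, passed the unadjusted test in opposite directions. USP14 had 41.4 and 28.6 FPKM in si-YTHDF3 cells against 18.8 and 22.6 FPKM in NC cells (log2 fold change 0.72, unadjusted p = 0.0163, adjusted p = 0.258). The direction of USP14 turned with transcripts weighted by length, to a log2 fold change of -0.23, and was -0.48 over protein-coding transcripts. Without si-YTHDF3 library 1 the log2 fold change of USP14 was 0.46. UCHL5 had 28.3 and 27.2 FPKM in si-YTHDF3 cells against 33.4 and 46.6 FPKM in NC cells (log2 fold change -0.49, unadjusted p = 0.0395, adjusted p = 0.316). Its log2 fold change was -0.26 without NC library 2 and -0.73 without NC library 1. It was -0.52 without si-YTHDF3 library 1 and -0.47 without si-YTHDF3 library 2.

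In class I antigen processing, which uses peptides made by the proteasome, 2 of 12 genes were higher at an unadjusted p under 0.05 and none was lower. TAP1, a subunit of the peptide transporter, had 13.2 and 14.6 FPKM in si-YTHDF3 cells against 10.7 and 9.68 FPKM in NC cells (log2 fold change 0.41, unadjusted p = 0.0277, adjusted p = 0.293). The log2 fold change of TAP1 was 0.34 without si-YTHDF3 library 2 and 0.34 without NC library 2. NLRC5, the transactivator of class I genes, had 5.2 and 6.95 FPKM in si-YTHDF3 cells against 3.86 and 4.22 FPKM in NC cells (log2 fold change 0.48, unadjusted p = 0.0348, adjusted p = 0.311). For NLRC5 it was 0.30 without si-YTHDF3 library 2 and 0.43 without NC library 1. The interferon regulator IRF1 lay the other way, with 4.15 and 5.99 FPKM in si-YTHDF3 cells against 6.66 and 8.75 FPKM in NC cells (log2 fold change -0.53, unadjusted p = 0.0504), and was -0.75 without si-YTHDF3 library 2 and -0.31 without si-YTHDF3 library 1.

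None of 6 regulators of proteasome transcription passed the unadjusted test. NFE2L1 had 26.7 and 47.8 FPKM in si-YTHDF3 cells and 20.4 and 44.2 FPKM in NC cells, and the libraries of each condition lay further apart than the conditions did. Its log2 fold change of 0.24 was 0.78 without NC library 2 and -0.30 without NC library 1. NFE2L2 had 43.5 and 17.9 FPKM in si-YTHDF3 cells and 26.2 and 60.3 FPKM in NC cells (log2 fold change -0.49). For NFE2L2 too the value depended on which library was left out. It was -1.11 without si-YTHDF3 library 1 and -1.08 without NC library 1, but 0.12 without si-YTHDF3 library 2 and 0.10 without NC library 2. MAFF, a small partner of both factors, had 7.88 and 8.66 FPKM in si-YTHDF3 cells against 7.65 and 1.08 FPKM in NC cells, and NC library 2 stood apart from the other 3 (log2 fold change 1.13, unadjusted p = 0.127). The value of MAFF was 2.16 without NC library 1 and 0.10 without NC library 2. None of the 6 genes of ubiquitin and its activating enzymes passed, and the largest log2 fold change in size among them was -0.19 for the activating enzyme UBA6. None of the 7 other subunits and assembly factors passed either. Of these, TXNL1 had the largest log2 fold change (0.52), which was -0.42 without NC library 1 and 1.46 without NC library 2. ADRM1 had 0.14 and POMP had -0.16.

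For m6A there was 1 table with 99 differential peaks, all on chromosome 1, without a value for each library. Of 4 proteasome genes on that chromosome, PSMA5, PSMB2, PSMB4 and PSMD4, only PSMB4 had a listed peak. The list names 90 genes, and their share of all genes on the chromosome was not computed, so this count has no background. Of the 99 peaks, 94 lie on plus-strand genes, and PSMA5 and PSMB2 are on the minus strand, so that the lack of a listed peak says little about them. The peak lies at chr1:151401225-151401734 (GRCh38) in exon 5 of 7 of the PSMB4 mRNA ENST00000290541, and is 510 bases wide. Its fold enrichment of precipitated over input RNA, a value listed without naming a library or condition, was 1.25, below the median of 1.44 over the 99 peaks. The input level of PSMB4, a structural subunit of the beta ring, was 75.8 and 83.7 FPKM in si-YTHDF3 cells and 76.3 and 64.4 FPKM in NC cells, with overlapping groups (log2 fold change 0.18, 95% interval -0.17 to 0.53).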

How the data were processed

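Input RNA and m6A-precipitated RNA of HCT116 cells were sequenced, and titles gave each library's group and number. The deposited input table of the authors gives FPKM of Ensembl transcripts in 4 libraries, and their peak list gives a ratio of precipitated over input RNA per differential peak for all libraries together. The processing notes name GRCh38, and the sources used here name no aligner or quantifier. The deposited files also hold fold changes, p-values and q-values of the authors' own comparisons, which were not used.

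FPKM were summed per gene name, filtered at a mean of 1 FPKM, and tested on log2(FPKM + 1) with limma 3.58.1 (mean trend, R 4.3.3) with no covariate. The code of the test was run on values simulated from its own fitted variances, which cannot show whether FPKM meet its assumptions. Interval width and standard errors rest on 2 libraries per group. A fit without 1 library leaves 1 library in a group, so the spread within a gene then comes from the other group alone. The labels do not say whether same-numbered libraries belong together, and their deviations correlated at -0.11. Genes and lists were chosen with earlier results of these data known. Values per library are given for catalytic, inducible, activator, inhibitor and chaperone genes, PSMD4 and PSMD14, every gene at an unadjusted p under 0.05, and the 6 largest changes per direction. Named transcripts had at least 5 FPKM in the higher group, up to 8 per direction, and related genes were named at an unadjusted p under 0.05 or among the 3 largest changes of a list. A few genes were added after their values were seen. Some items that this rule or the lists hold are not reported here. Alternatives covered the pseudocount (0.1), the filter (none, 5 FPKM), scaling, the combination of transcripts, the trend, replicate blocks and each library left out. Figures were drawn with matplotlib 3.10.9.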

Additional observations from a re-analysis of the deposited data

How the results depend on the processing

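No proteasome gene passed at an adjusted p under 0.05 under any alternative run except the replicate block, under which PSMB10 passed (1 lower gene, adjusted p = 0.0367, with 143 genes of the whole table). Deviations of same-numbered libraries correlated at -0.11, which shows no pairing by number but cannot exclude a shared culture or day, and the labels name none. With the numbers crossed, an alternative chosen after seeing the data, 6 proteasome genes were higher and 5 lower at an unadjusted p under 0.05 (24.4% of them, against 19.2% of all genes), 0 passed the adjusted threshold, and 8 transcripts were higher at 2-fold. Leaving out 1 library leaves 1 library in a group, so genes and transcripts passing the unadjusted threshold in those fits are not counted here. The median log2 fold change in those fits was 0.006 to 0.091, the highest without si-YTHDF3 library 1. It was 0.001 with length-weighted sums. Protein-coding transcripts alone left 0 lower genes and added PSME2 to the higher ones (0.621). Transcripts at an unadjusted p under 0.05 and 2-fold numbered 7 to 11 higher and 7 to 13 lower with 1 library left out, the most without NC library 2 and without si-YTHDF3 library 2, and 3 in each direction at a minimum of 5 FPKM.

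The 7 genes at an unadjusted p under 0.05 kept their direction in every alternative that gave a value. Of the other genes, some changed sign. Protein-coding transcripts alone gave log2 fold changes of 0.139 for PSMA2, -0.009 for PSMB7, -0.072 for PSMC1 and 0.139 for PSMD6. Length-weighted sums gave -0.061 for PSMC1 and -0.044 for PSMC6. Rescaling every library to an equal total gave -0.010 for PSMB7 and -0.018 for PSMC1, and median ratio scaling gave -0.001 for PSMC1. Without 1 library the ranges crossed 0 for PSMA6 (-0.311 to 0.073), PSMB3 (-0.005 to 0.209), PSMB7 (-0.084 to 0.125), PSMB9 (-0.064 to 0.264), PSMC1 (-0.113 to 0.137), PSMC5 (-0.173 to 0.091), PSMC6 (-0.094 to 0.165), PSMD2 (-0.095 to 0.297), PSMD6 (-0.189 to 0.055) and PSMD10 (-0.027 to 0.509). The causes were not tested. A stricter limit on the authors' change of peak enrichment was not run, because it rests on their own comparison, and the unknown read depth limits what can be said of low genes such as PSMB8.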
